A study of Mus musculus with 141 samples.

Results

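The comparison is of livers with high against low Arntl, the gene of the activating clock factor BMAL1. Bulk RNA-seq was made from whole liver, lung and kidney of 1 male mouse from each of 47 Collaborative Cross (CC) strains, recombinant inbred lines descended from several founder strains, which gave 141 libraries. All mice were 8 to 12 weeks old, were kept on a 12-h light-dark cycle, and spent 6 hours per weekday for 2 weeks in chambers supplied with clear air, and all were exsanguinated under nembutal anaesthesia. The 32 livers compared, of 47, were chosen by their Arntl level, as log2(CPM + 1), where CPM, the usual depth-scaled count, was computed from expected counts over the library's total without Rn45s, the gene of the ribosomal RNA precursor. The 16 highest livers form the high group, the 16 lowest the low group, and the other 15 a middle group that entered no test. The Arntl level stands in for the clock phase at collection, since the labels used here give no time of death. The labels give the same treatment, diet and age range for every mouse, and no age for a single mouse. Because there was 1 mouse per strain, strain and clock phase cannot be told apart, and every p-value measures the spread between mice of different strains. The study sequenced its libraries in several batches, but the labels assign no library to one, so batch and group cannot be told apart.

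The Arntl values that made the groups are given only as a description. The score ranged from 1.21 to 3.09 in the high group and from 0 to 0.55 in the low group. The nearest livers on either side of the upper limit were CC037, inside at 1.21, and CC030, outside at 1.17. At the lower limit CC057 lay inside at 0.55 and CC027 outside at 0.59. These scores rest on few reads: Arntl had between 4 and 64 counts in the high group and between 0 and 5 in the low group, where 14 of 16 livers had at most 3 counts. The neighbouring order at both limits is therefore within counting error. Membership away from the limits can also rest on few reads. CC033 was in the low group on 0 Arntl counts among 1567603 outside Rn45s, and CC036 in the high group on 4 among 1341632. Arntl is left out of all results that follow.

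The mammalian clock is a transcriptional feedback loop that runs in nearly every cell. BMAL1 pairs with CLOCK or NPAS2 and activates the Per, Cry, Nr1d and Dbp genes through E-box sequences, the PER and CRY proteins then repress that pair, and the NR1D proteins repress Arntl itself. In mouse liver the Arntl transcript and the E-box genes therefore peak at different times of day, and the loop drives daily rhythms in lipid, sterol, glycogen and haem metabolism.

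In the high-Arntl livers 4 of 7 tested genes of the clock's repressing arm and 2 of 3 PAR bZIP output factors were lower, led by Ciart, Dbp and Per2, and the fatty acid elongase gene Elovl3 was higher, with a median of 261 CPM against 61.7 CPM. Of 10220 genes tested in liver, 159 passed a Benjamini-Hochberg adjusted limma p, called q here, of at most 0.1, which is 1.56% of those tested. Higher in the high group were 85 genes (0.832%) and lower were 74 (0.724%). With libraries scaled by total counts the split was 130 higher and 7 lower, as the median of all genes moved to 0.18, and Nr1d2, Bhlhe40, Hlf, Ankrd12, Rev1, Rnf145, Fnip2, Alas1 and Gys2 no longer passed. Nr1d2, Bhlhe40 and Hlf also did not pass when the Arntl score itself was rescaled between libraries. The log2 fold changes of the 159 genes ran from -2.48 for Ciart to 2.05 for E2f7, an atypical E2F repressor of cell cycle genes. The median size was 0.49. Only 27 of the 159 differed by at least 2-fold, 14 higher and 13 lower. Per2 was the 1 tested gene whose high and low libraries did not overlap. The middle livers, which the fit did not use, had a median between those of both groups for 147 of the 159 genes (92.5%), against 38.1% of all tested genes. Called genes were picked for separated groups, which by itself makes a median between them likelier, so this contrast is only a description.

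The 32 livers held 1341632 to 14498126 expected counts outside Rn45s, and the 3 shallowest, CC033 in the low group and CC036 and CC039 in the high group, held at most 2099400. Of 6 measures of depth and composition, the 20 most abundant genes took 38.8% of counts on average in the high group and 47.1% in the low group (permutation test, two-sided, p = 0.0257, q = 0.154 over the 6 measures), and Rn45s took 30.5% and 40.0% of all counts (q = 0.23). None of the 6 passed a q of 0.05, and their part in the gene differences was not tested. The high-group liver CC015 stood apart within its group: its Nr1d1 level was 2.77 CPM and its Dbp level 3.59 CPM, each the lowest of the group, while its Cry1 level of 57.7 CPM and its Nfil3 level of 68.6 CPM were the highest. In the lung of the same mouse Nr1d1 was at 17.9 CPM and Dbp at 2.69 CPM, and in its kidney at 2.95 and 4.0 CPM, all the lowest of the high group in that tissue. Without CC015 the liver comparison called 223 genes, and without the 3 shallow livers it called 104.

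Of the 10 genes listed for the repressing arm, 7 were tested and 4 of them, Per2, Ciart, Nr1d2 and Bhlhe40, were lower in the high group, with no gene higher. The list's median log2 fold change was -0.41, beside 0 over all tested genes. Levels below are CPM scaled between libraries with TMM (trimmed mean of M values) factors, given as the lowest, the median and the highest library of a group. In bulk tissue, fewer cells expressing a gene and less RNA per cell cannot be told apart. Gene positions are on mouse build NCBIM37 (mm9), the build of the deposited files, from GENCODE vM1.

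Per2, on chr1:93312561-93355907 (minus strand), encodes a period protein that represses CLOCK and BMAL1. Its levels were 13.3, 21.8 and 32.4 CPM in the high group, 26.9, 36.9 and 65.6 CPM in the middle livers, and 32.9, 46.9 and 101 CPM in the low group. Every low-group liver was above every high-group liver, and the top high-group value, in CC015, lay just under the bottom low-group value, in CC031. Per2 had a log2 fold change of -1.16 (SE 0.15, q = 2.76e-05).

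Ciart, on chr3:95682426-95686174 (minus strand), encodes a repressor that binds BMAL1. Its levels were 0.336, 1.84 and 7.46 CPM in the high group and 3.71, 12.0 and 22.6 CPM in the low group. All 16 high-group livers were below the low group's median and 12 were below its minimum. The log2 fold change of -2.48 (SE 0.33, q = 2.76e-05) was the most negative of any gene called in liver, although the 3 highest middle livers reached up to 38.1 CPM, above every low-group liver.

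Promoter windows, the 250 bases upstream of the transcription start in RefSeq on GRCm38.p6, a later build than that of the files, were searched on both strands for E-box letters (CACGTG, the site of the BMAL1 pair), D-box letters (TTATGTAA or TTACGTAA, the site of DBP, HLF and TEF) and RORE-type letters (TAGGTCA or TGGGTCA, the site of NR1D and ROR proteins). Of the 27 named genes called in liver, 21 had an entry, and 15 of the 21 held none of these letters, Dbp, Nr1d2, Hlf, Insc, Lrfn3 and Ypel2 among them. E-box letters stood in 9 of 56 windows of the genes lower in the high group (16.1%), in 7 of 68 of those higher (10.3%), in 9.5% of all genes tested in liver and in 6.86% of all 27025 genes of the table. D-box letters stood in 2 of the 56 lower (3.57%) and 0 of the 68 higher, against 0.887% of genes tested in liver, and RORE-type letters in 0 of the 56 lower and 5 of the 68 higher (7.35%), against 5.24%. These shares are descriptions, and a match is not a binding site. The windows below are those of Ciart, with 3 E-box matches, Ankrd12, with 2, and Coq10b, with an E-box and a D-box match. They are examples of genes that were lower and hold the letters searched, which are in capitals. Other lower genes, Rev1 and Rnf145 among them, also held an E-box match and are not printed.

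Ciart, GRCm38.p6 chr3:95882229-95882478, minus strand: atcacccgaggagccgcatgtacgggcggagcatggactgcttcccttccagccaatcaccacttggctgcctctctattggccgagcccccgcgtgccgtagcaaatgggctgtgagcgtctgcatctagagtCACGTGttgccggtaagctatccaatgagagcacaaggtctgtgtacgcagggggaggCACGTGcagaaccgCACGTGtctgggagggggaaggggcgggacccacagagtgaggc
Ankrd12, GRCm38.p6 chr17:66077047-66077296, minus strand: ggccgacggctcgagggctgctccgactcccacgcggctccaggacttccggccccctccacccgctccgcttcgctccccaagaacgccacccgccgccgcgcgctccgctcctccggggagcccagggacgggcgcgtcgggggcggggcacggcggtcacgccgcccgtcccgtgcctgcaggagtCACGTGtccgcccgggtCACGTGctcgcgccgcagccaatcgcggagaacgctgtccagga
Coq10b, GRCm38.p6 chr1:55052520-55052769, plus strand: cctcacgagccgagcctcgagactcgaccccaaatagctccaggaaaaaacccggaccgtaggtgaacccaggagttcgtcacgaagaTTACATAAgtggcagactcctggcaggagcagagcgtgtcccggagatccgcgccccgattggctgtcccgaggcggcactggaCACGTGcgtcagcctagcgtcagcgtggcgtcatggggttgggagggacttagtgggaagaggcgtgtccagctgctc

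In Ciart the E-box letters began between 116 and 44 bases before the start, in Ankrd12 61 and 44 bases before it, and in Coq10b 78 bases before it, with the D-box letters, read on the opposite strand as TTACATAA, 162 bases before the start.

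The other called repressors moved less. Nr1d2, which encodes the haem receptor REV-ERB beta, was at 91.7, 172 and 232 CPM in the high group and 167, 220 and 299 CPM in the low group. The groups overlapped, with 15 of 16 high-group livers below the low group's median, and the log2 fold change was -0.41 (SE 0.10, q = 0.043). This call was lost with Arntl scored on TMM-scaled CPM (q = 0.123) and with total-count scaling (q = 0.441), among others. Bhlhe40, an E-box binding repressor, was at 46.5, 101 and 255 CPM against 113, 187 and 296 CPM, and 9 high-group livers were below the low minimum. Its log2 fold change was -0.66 (SE 0.19, q = 0.0955), and the call was lost without CC015 (-0.65, q = 0.104) and without the shallow livers (-0.69, q = 0.147). It was also lost with edgeR (q = 0.177), DESeq2 (q = 0.106), Arntl scored on TMM-scaled CPM (q = 0.16) and depth as a covariate (q = 0.111), among others.

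The other tested members of the arm did not pass, and their groups overlapped almost fully. Cry1, a cryptochrome gene, had a median of 9.67 CPM in the high group and 8.70 CPM in the low group, with a log2 difference of 0.21 (95% CI -0.29 to 0.72, q = 0.75) that was 0.05 without CC015. Cry2 had medians of 44.3 and 46.9 CPM and a difference of -0.11 (95% CI -0.31 to 0.09, q = 0.655), whose sign turned to 0.10 when libraries were scaled by total counts. Nr1d1, which encodes REV-ERB alpha, had medians of 58.0 and 56.0 CPM and a difference of -0.38 (95% CI -1.0 to 0.23, q = 0.611). That difference came down to -0.10 without CC015, so 1 library set most of it.

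Per1, Per3 and Bhlhe41 were below the expression limit in liver. Per1 was listed at 0 in 15 of 16 high-group and 14 of 16 low-group livers, and had at most 1 count in any of them. The authors quantified uniquely aligned reads. The files name 2 transcripts for Per1 and 3 for Per3, and genes with several transcripts were tested less often in liver (26.1%) than genes with 1 (47.1%), and whether a low value of these genes is a low level of RNA was not tested. Per3 was at 0 to 0.644 CPM in the high group and 0 to 1.78 CPM in the low group, near the 0.474 CPM that 3 counts make at the median depth.

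**Figure D1:**
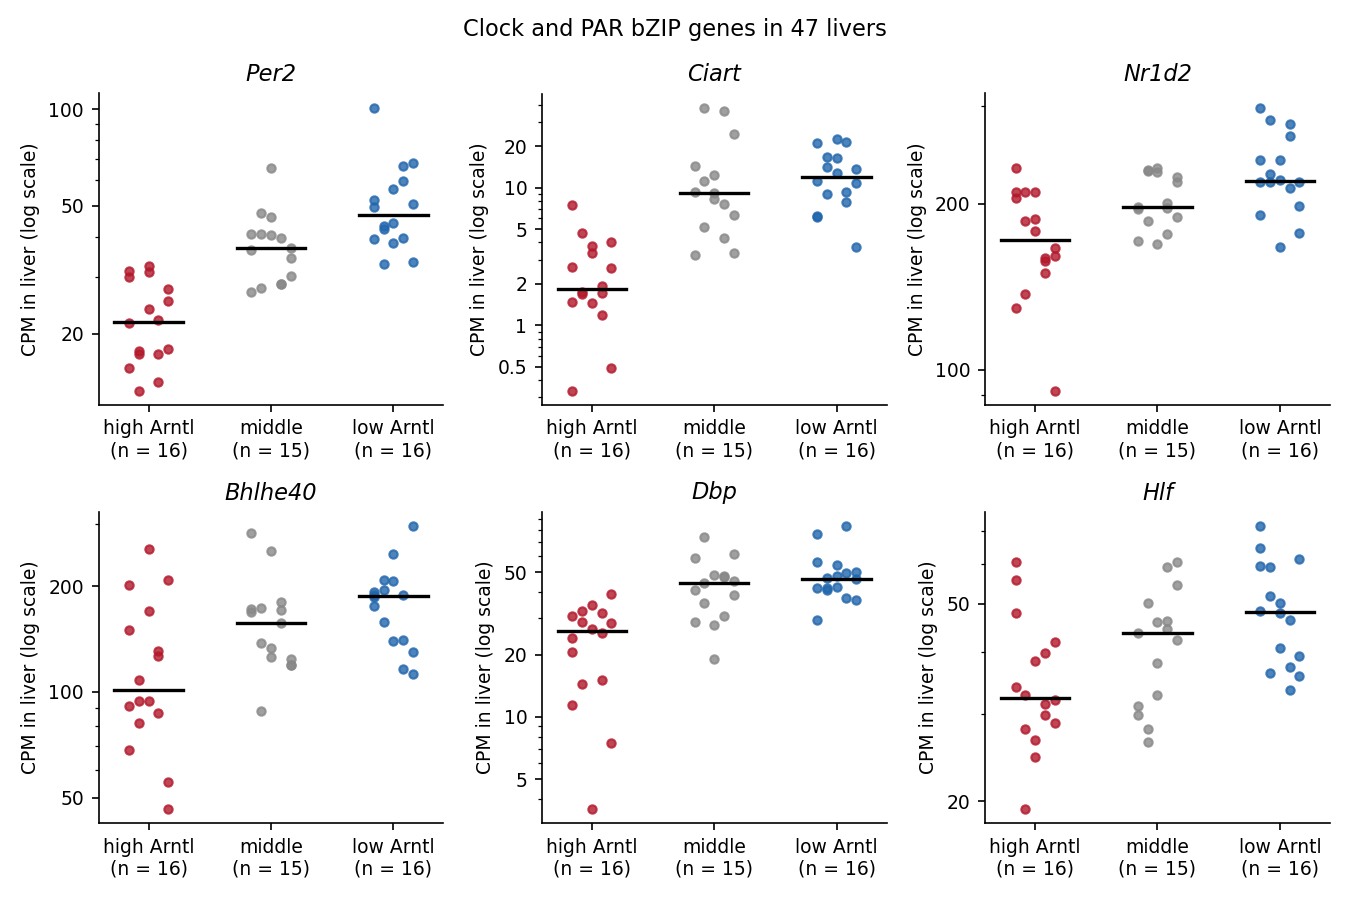
TMM-scaled CPM in liver, on a log axis, of 6 clock and PAR bZIP genes that passed the test, with 1 point per liver in the high, middle and low Arntl groups and a bar at each median. Per2 separates the high from the low group, and the 16 high-group livers of Ciart and Dbp all lie under the low group's median.

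Of the 5 genes reported here for the activating arm, which exclude Arntl, 2 were tested and 0 were called in either direction. Rora, a ROR receptor that activates Arntl, had medians of 2.20 CPM in the high and 3.21 CPM in the low group (log2 difference -0.46, SE 0.21, q = 0.329). Of the 16 high-group livers 13 were below the low median, while the ranges overlapped. Nfil3, which the list holds although it encodes a D-box binding repressor, had medians of 14.4 and 12.9 CPM. Its log2 difference was 0.37 (SE 0.22, q = 0.462), and 0.23 without CC015. Rora was thus the only tested activator on the list.

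Npas2, the partner of BMAL1 that can take the place of CLOCK, was below the expression limit and so was not tested in liver. It was at 0, 0.922 and 5.78 CPM in the high group, 0, 0.254 and 1.0 CPM in the middle livers, and 0, 0.275 and 1.55 CPM in the low group. Of the 16 high-group livers 13 were above the low median, and the top value was in CC053. Npas2 had at most 3 counts in 5 high-group and 13 low-group livers. The low median lies under the 0.474 CPM that 3 counts make at the median depth. Clock was at 0 to 1.27 CPM and 0.147 to 3.09 CPM in the high and low groups, and Arntl2 was listed at 0 in every liver. Clock has 3 transcripts named and Arntl2 has 4, and whether their low values are low levels of RNA was not tested.

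All 3 PAR bZIP genes, which encode D-box binding activators that pass the rhythm on to metabolic genes, were tested, and Dbp and Hlf were lower in the high group. Dbp, on chr7:52960458-52965525 (plus strand), was at 3.59, 26.0 and 39.2 CPM in the high group and 29.5, 46.6 and 83.6 CPM in the low group. All 16 high-group livers were below the low median and 11 were below the low minimum. Dbp had a log2 fold change of -1.24 (SE 0.23, q = 0.00439), and -1.06 without CC015.

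Hlf was at 19.3, 32.3 and 60.7 CPM in the high group and 33.4, 48.1 and 71.5 CPM in the low group. The groups overlapped, with 9 high-group livers below the low minimum. Its log2 fold change was -0.47 (SE 0.13, q = 0.0755), and the call was lost without the shallow livers (q = 0.154). It was also lost with edgeR (q = 0.102), without the expression filter (q = 0.12) and with Arntl scored on TMM-scaled CPM (q = 0.123), among others. Tef, with 0.666, 1.69 and 3.22 CPM against 1.15, 2.76 and 6.19 CPM, did not pass (log2 difference -0.63, 95% CI -1.02 to -0.24, q = 0.117). Tef passed with DESeq2 (q = 0.0909), Rn45s kept (q = 0.0514), all 47 libraries fitted (q = 0.0819) and the Arntl score as a number (q = 0.0545). In the other settings Tef did not pass.

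Of 12 listed clock modifiers, kinases, ubiquitin ligases and cofactors that act on the loop's proteins, 5 were tested and 0 were called, with a list median of 0.04. The lowest was Nampt, the rate-limiting enzyme of NAD salvage, at a log2 difference of -0.72 (SE 0.22, q = 0.107).

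Of 12 genes listed as rhythmic liver outputs, all were tested, and 1 was higher and 4 lower in the high group. Elovl3, on chr19:46206387-46210184 (plus strand), which elongates very long chain fatty acids, was at 46.4, 261 and 569 CPM in the high group, 48.2, 157 and 450 CPM in the middle livers, and 10.2, 61.7 and 227 CPM in the low group. The groups overlapped, but 15 of 16 high-group livers were above the low median and 9 were above the low maximum. Elovl3 had a log2 fold change of 2.02 (SE 0.39, q = 0.00548).

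Wee1, on chr7:117265864-117285626 (plus strand), the kinase that holds back entry into mitosis, was at 1.70, 5.46 and 13.4 CPM in the high group and 1.24, 14.2 and 29.4 CPM in the low group. All 16 high-group livers were below the low median, and the single lowest value of both groups was in the low-group liver CC041. The log2 fold change was -1.58 (SE 0.37, q = 0.0317).

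Coq10b, which encodes a mitochondrial coenzyme Q binding protein, was at 1.35, 2.97 and 6.68 CPM against 2.67, 6.13 and 9.28 CPM. Its groups overlapped with 15 of 16 high-group livers below the low median, and the log2 fold change was -1.08 (SE 0.21, q = 0.00548). Alas1, the rate-limiting enzyme of haem synthesis, was at 0.594, 10.7 and 23.9 CPM against 8.48, 19.2 and 32.4 CPM. Its 6 lowest high-group livers were under the low minimum, and the log2 fold change of -1.32 (SE 0.36, q = 0.0712) did not pass without the shallow livers (q = 0.147). Nor did Alas1 pass with edgeR (-0.83, q = 0.182), without the expression filter (q = 0.129) or with Arntl scored on TMM-scaled CPM (q = 0.178), among others.

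Gys2, the liver glycogen synthase, had medians of 215 and 287 CPM and a log2 fold change of -0.44 (SE 0.12, q = 0.077), lost without the shallow livers (q = 0.104). Its call was also lost with Rn45s kept (q = 0.169), Arntl scored on TMM-scaled CPM (q = 0.12) and all 47 libraries fitted (q = 0.106), among others. It lies outside the naming rule and was added as the remaining call of its list after its value was seen. The 7 other outputs did not pass: Upp2 was closest, at -1.01 (SE 0.32, q = 0.141).

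The naming rule took the 10 genes with the smallest q in each direction at 5 CPM or more in the higher group. Among those higher, Insc, on chr7:121887208-121993894 (plus strand), which encodes an adaptor that orients the mitotic spindle, had the smallest q. It was at 14.3, 19.2 and 34.2 CPM in the high group and 6.64, 9.52 and 18.6 CPM in the low group, and all 16 high-group livers were above the low median. Insc had a log2 fold change of 1.0 (SE 0.13, q = 2.76e-05).

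Lrfn3, which encodes a leucine-rich repeat adhesion protein known from synapses, was at 2.70, 5.77 and 10.4 CPM against 0.959, 2.05 and 4.46 CPM. In it 14 of the 16 high-group livers exceeded the low maximum, and the log2 fold change was 1.58 (SE 0.22, q = 0.000107). Ypel2 was at 23.0, 27.6 and 57.4 CPM against 7.74, 16.3 and 25.6 CPM, with 11 high-group livers above the low maximum and a log2 fold change of 0.90 (SE 0.14, q = 0.000355).

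Mcm7, a subunit of the replicative helicase, was at 12.7, 18.3 and 21.4 CPM against 6.19, 12.8 and 15.8 CPM, and 13 of 16 high-group livers exceeded the low maximum. Mcm7 had a log2 fold change of 0.51 (SE 0.08, q = 0.000355). Of 12 genes of a cell cycle list, which does not hold Mcm7, 8 were tested and 0 were called, and the list's median was -0.08.

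The other 5 of the 10 besides Elovl3 differed by less than 2-fold. Cldn1, a tight junction claudin, was at 67.0, 150 and 228 CPM against 45.5, 78.6 and 134 CPM (log2 fold change 0.84, q = 0.00169). Avpr1a, the vasopressin receptor of hepatocytes, was at 22.0, 40.5 and 63.7 CPM against 9.19, 22.6 and 40.1 CPM (0.86, q = 0.00477). In these genes 10 and 9 high-group livers exceeded the low maximum. Eps8l2, an actin regulator, had a log2 fold change of 0.60 (q = 0.00372), Blcap of 0.47 (q = 0.00239), and Ap2a2, a subunit of the clathrin adaptor AP-2, of 0.32 (q = 0.00477).

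Among the 10 lower genes, 4 are the clock genes and outputs Per2, Ciart, Dbp and Coq10b already given. Nrg4, a secreted ligand of the receptor ERBB4, was at 2.66, 6.24 and 15.2 CPM in the high group and 6.63, 14.1 and 25.2 CPM in the low group, and 10 high-group livers were below the low minimum. Its log2 fold change was -1.03 (SE 0.18, q = 0.00265), and the call was lost with 20 against 20 livers (-0.66, q = 0.164), among others. Ankrd12, an ankyrin repeat protein, was at 14.1, 20.4 and 35.8 CPM against 20.1, 34.4 and 43.9 CPM, with a log2 fold change of -0.63 (SE 0.11, q = 0.00211).

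Fnip2, which encodes a partner of folliculin, was at 54.2, 73.2 and 140 CPM against 79.6, 135 and 205 CPM (log2 fold change -0.68, q = 0.00634). Rnf145, a ubiquitin ligase of the endoplasmic reticulum, had medians of 17.8 and 27.4 CPM (-0.64, q = 0.00634). In both genes at least 10 high-group livers were below the low minimum. Rev1, a translesion DNA polymerase, had medians of 18.0 and 22.7 CPM, all 16 high-group livers were below the low median, and the log2 fold change was -0.40 (q = 0.00548).

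Kitl, the ligand of the receptor KIT, was the exception to the order of the groups. It was at 2.51, 6.50 and 11.7 CPM in the high group and 5.93, 10.9 and 17.9 CPM in the low group (log2 fold change -0.90, SE 0.19, q = 0.0157). The 15 middle livers, at 1.46, 3.0 and 9.53 CPM, had a median below both, so Kitl did not follow the order of the Arntl score. With the score as a number over all 47 livers it did not pass (q = 0.336).

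**Figure D2:**
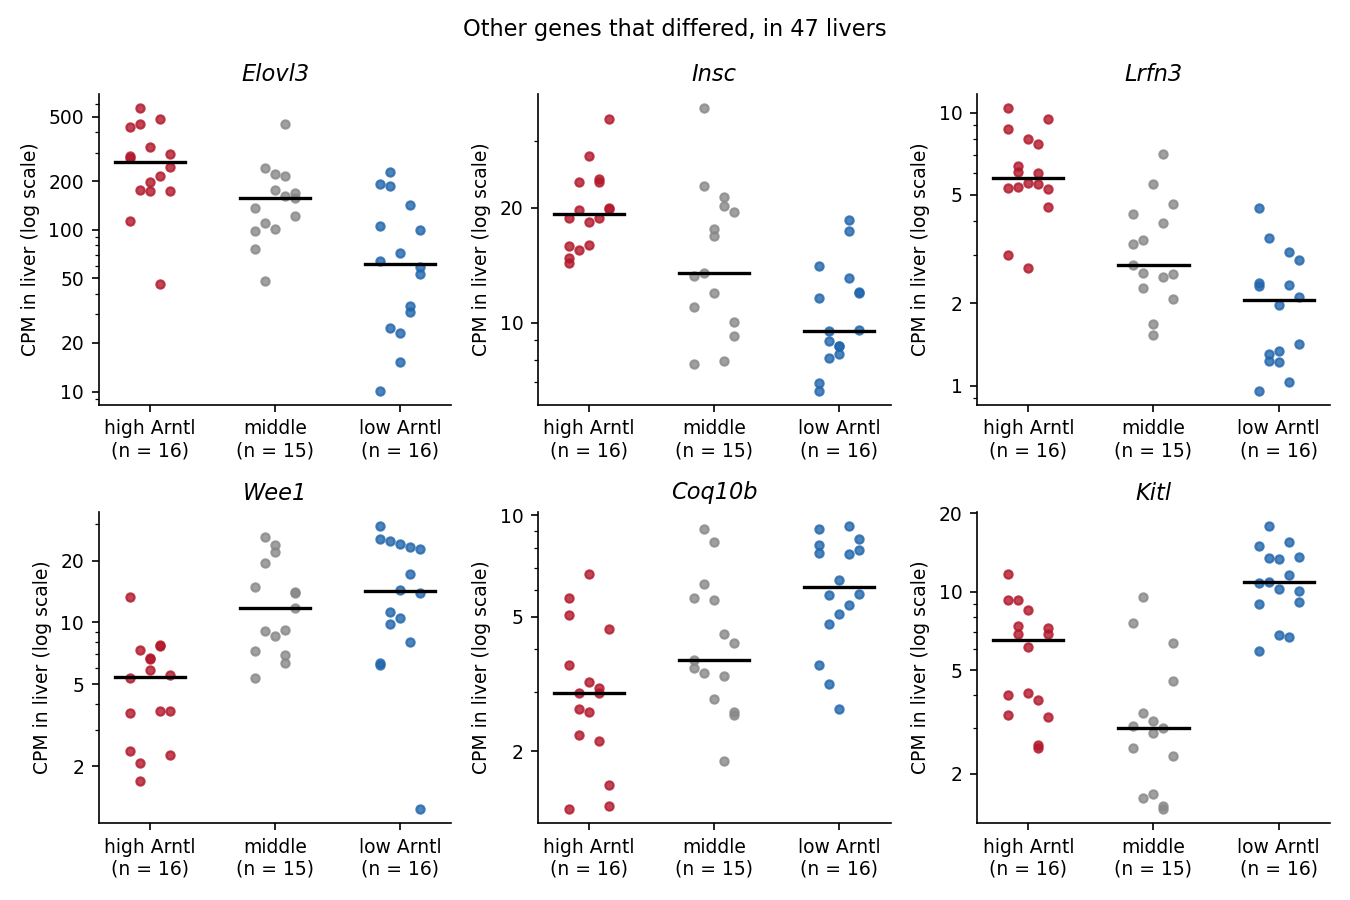
TMM-scaled CPM in liver, on a log axis, of 6 other genes called between the groups, 1 point per liver with a bar at each median. Elovl3, Insc and Lrfn3 are higher in the high group, Wee1 and Coq10b lower, and Kitl has its lowest median, 3.0 CPM, in the middle livers.

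Insig2, which encodes a protein that retains the SREBP complex in the endoplasmic reticulum when sterols are plentiful, rose with a log2 fold change of 1.77 (SE 0.37, q = 0.0119), from a mean of 0.572 CPM in the low group to 1.69 CPM in the high group. Insig2 was singled out after its value was seen. Its low-group mean is near the 0.474 CPM that 3 counts make at the median liver depth. Its values under the alternatives are not given.

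Of the metabolic lists described here, none had a called gene in liver. These held 13 tested lipogenesis and insulin response genes (median log2 difference 0.03), 13 fasting and PPAR-alpha targets (0.24), 13 gluconeogenesis and amino acid catabolism genes (0.05), 10 bile acid genes (0.21) and 10 xenobiotic genes (-0.55). Thrsp, a lipogenic gene, was nearest to the limit, at a log2 difference of -1.14 (SE 0.33, q = 0.102). Cyp7a1, the rate-limiting enzyme of bile acid synthesis, had a mean of 214 CPM in the high group and 444 CPM in the low group, with a log2 difference of -1.07 (SE 0.38, q = 0.20). Single log2 differences ran from -2.75 to 1.32 in the xenobiotic list and from -0.39 to 2.58 in the fasting and PPAR-alpha list. The absence of a call therefore does not show that these levels were alike.

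The stress lists had no call either: 10 tested glucocorticoid response genes (median -0.14), 11 heat shock and cold-inducible genes (-0.23), 11 immediate early genes (0.02) and 12 acute phase genes (0.04). The widest of these differences was that of the metallothionein gene Mt2, at -1.70 (SE 0.76, q = 0.314).

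Among markers of position and cell type 1 gene was called. Of 9 tested pericentral hepatocyte genes 0 were called (median -0.09), and of 7 periportal genes 1 was, the serine dehydratase-like Sdsl, with medians of 9.12 and 6.80 CPM (log2 fold change 0.66, SE 0.19, q = 0.0987), a call lost without CC015 (q = 0.112) or the shallow livers (q = 0.115). The 7 tested hepatocyte markers had a median log2 difference of 0.04 with 0 called, and their summed level spanned 65700 to 132000 CPM in the high group and 53100 to 170000 CPM in the low group, far above the 3.2 to 1220 CPM they reached in the lungs of the high mice. None of 6 Kupffer and immune, 10 endothelial and stellate, 3 cholangiocyte, 2 red cell and 5 pancreas markers tested was called. Single log2 differences ran from -0.14 to 0.98 in the Kupffer and immune list, from -0.47 to 0.17 in the endothelial and stellate list, and from 0.17 to 0.84 in the red cell list, so the absence of a call does not show that these levels were alike. The pancreas markers summed to between 3.83 and 322 CPM in the high group and between 5.60 and 1590 CPM in the low group. In the kidneys of the same mice they summed to 3.37 to 85.3 CPM and 9.13 to 60.1 CPM. Whether the liver values come from pancreas RNA was not tested. The immune markers summed to 127 to 606 CPM and 128 to 1510 CPM, with Ptprc, Cd3e, Cd79a, Ms4a1 and S100a8 below the expression limit. The part of either in the gene differences was not tested.

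The lung and kidney of the same mice give the same clock genes in libraries that the rule did not use. In lung 3 of 13382 genes tested were called (0.0224%), 1 higher and 2 lower in the mice with high liver Arntl, and in kidney 0 of 11837 (0%). At an unadjusted p under 0.05 the kidney had 996 genes, and at q of at most 0.1 edgeR called 0 and DESeq2 43. Of the liver's 159 genes, 152 were tested in lung, where 119 had the same direction (78.3%, against 60.7% of all genes tested in both tissues) and 36 did so at an unadjusted p under 0.05. In either direction, 25% of these genes had such a p in lung, against 13.5% of all genes tested in both tissues. In kidney 151 were tested, 124 had the same direction (82.1%, against 61.0%) and 26 did so at that p, with 17.9% of these genes under it in either direction against 8.92% of all. The differences there were small, with medians of 0.13 and -0.11 in lung and 0.10 and -0.15 in kidney for the genes higher and lower in liver.

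**Figure D3:**
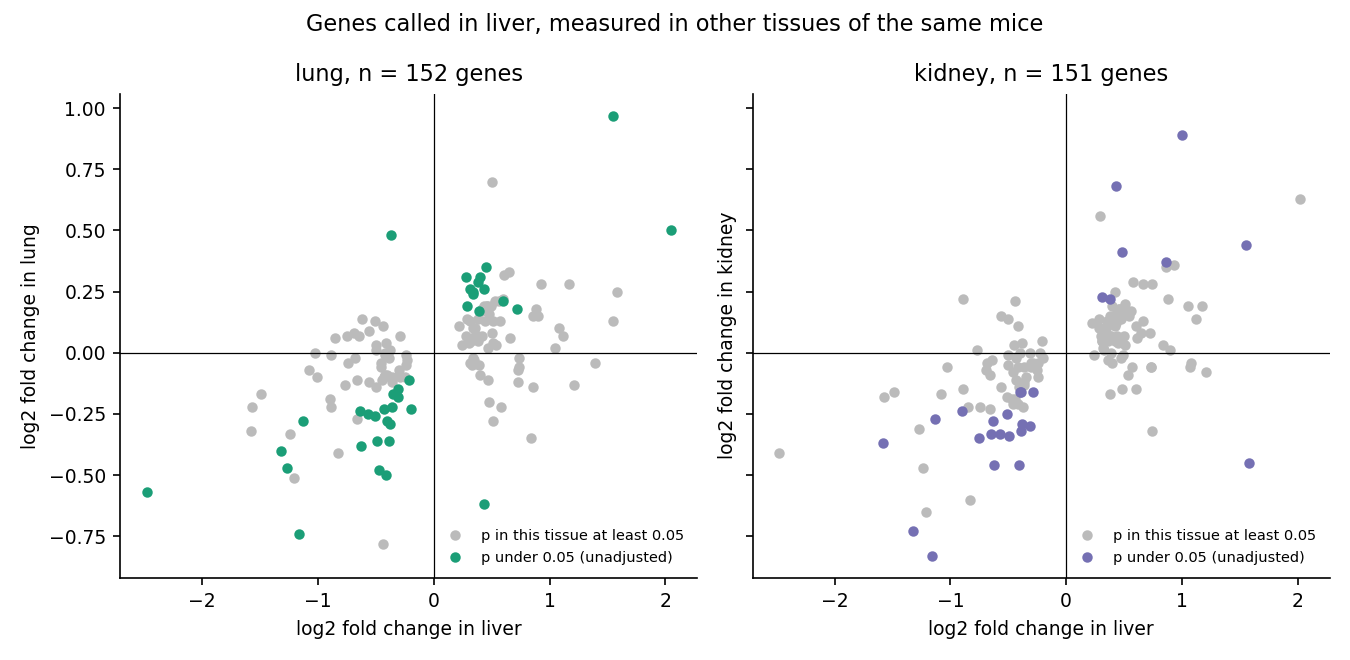
Log2 fold change in liver, on the x axis, against that in lung (left, 152 genes) or kidney (right, 151 genes) of the same mice, on the y axis, for genes called in liver; coloured points have an unadjusted p under 0.05 in the other tissue. Most points lie in the 2 quadrants of the same sign, 119 in lung and 124 in kidney, and close to 0 on the y axis.

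Nr1d2 was the 1 gene called in both liver and lung. In lung it was at 202, 241 and 335 CPM in the mice of the high group and 215, 359 and 444 CPM in those of the low group, and all 16 of the former were below the median of the latter. The log2 fold change was -0.50 (SE 0.09, q = 0.0129), and in kidney, with medians of 254 and 276 CPM, the difference was -0.14 (SE 0.08, q = 0.653).

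Fdx1 and Cdkn2b, the other calls in lung, were named because they were called. Fdx1, the ferredoxin that feeds electrons to mitochondrial P450 enzymes, had lung medians of 27.5 and 37.2 CPM, with 11 of 16 high-group mice below the low minimum (log2 fold change -0.46, SE 0.08, q = 0.0111). In liver its difference was -0.18 (SE 0.12, q = 0.526), turning to 0.04 with total-count scaling. Cdkn2b, a cell cycle inhibitor, had lung medians of 32.2 and 24.6 CPM (0.57, SE 0.12, q = 0.0987) and was below the expression limit in liver.

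Per2 and Ciart had the liver's direction in both tissues without passing. Per2 had medians of 86.3 and 154 CPM in lung (log2 difference -0.74, SE 0.24, q = 0.258) and of 42.6 and 71.2 CPM in kidney (-0.83, SE 0.21, q = 0.244), where 15 of 16 mice of the high group were below the low median. Ciart differed by -0.57 (SE 0.16, q = 0.247) in lung and by -0.41 (SE 0.35, q = 0.796) in kidney. Dbp had medians of 30.5 and 41.1 CPM in lung (-0.33, q = 0.562) and 36.2 and 41.9 CPM in kidney (-0.47, q = 0.625). Npas2, which both tissues measured above the limit, had medians of 5.63 and 3.33 CPM in lung (0.58, SE 0.25, q = 0.346) and 3.98 and 2.28 CPM in kidney (0.93, SE 0.35, q = 0.453), with 13 of 16 mice of the high group above the low median in each.

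**Figure D4:**
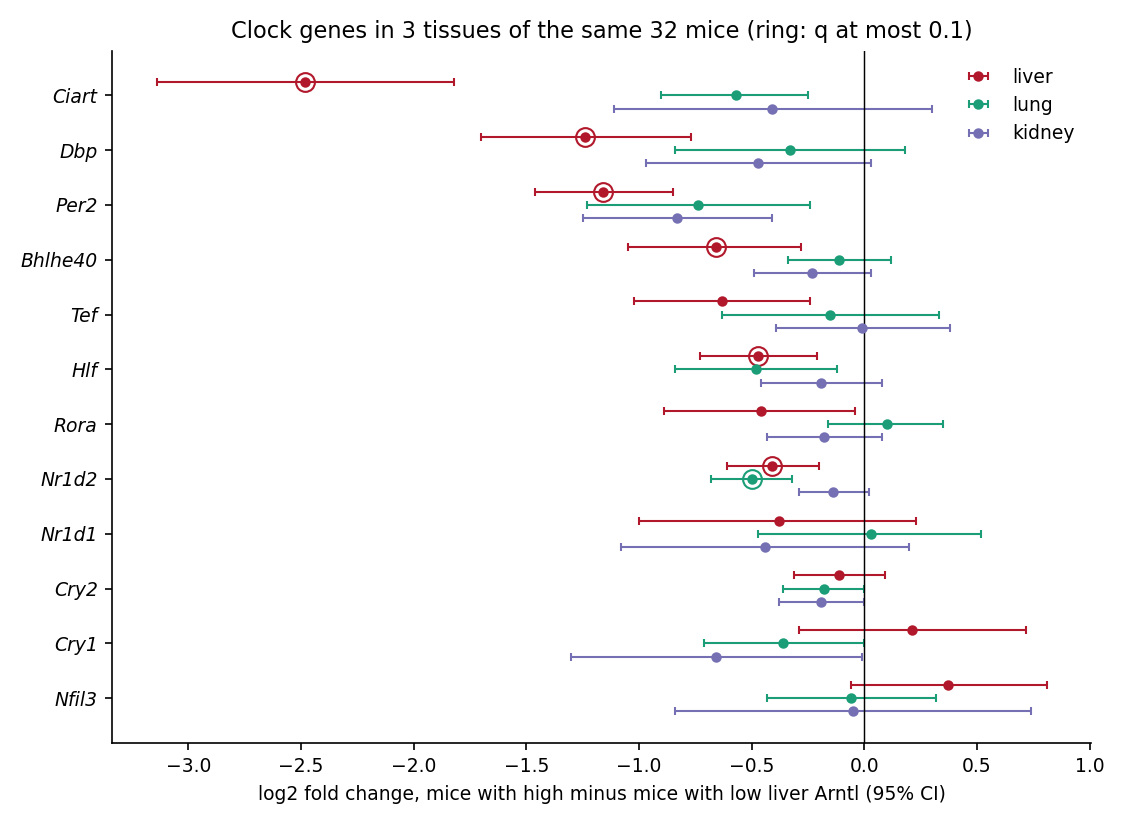
Log2 fold change of 12 clock and PAR bZIP genes, mice with high minus mice with low liver Arntl, with 95% confidence intervals, in liver, lung and kidney; a ring marks q of at most 0.1. Rings stand at 6 genes in liver, at Nr1d2 in lung and at none in kidney, and Ciart is the gene whose liver interval (-3.14 to -1.82) lies farthest from 0.

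Whether a gene's difference in liver was unlike that in lung or kidney was tested directly, with each mouse's tissues paired. The liver and lung differences were unlike for 87 of 12906 genes (0.674%), and those of liver and kidney for 36 (0.279%). The groups were cut on liver libraries and the named genes were chosen mostly by their liver values, so this comparison leans towards larger differences in liver. With that limit, Ciart and Wee1 were lower by more in liver than in either other tissue. The liver log2 fold change minus that in lung was -1.71 for Ciart (SE 0.39, q = 0.0255) and -1.36 for Wee1 (SE 0.24, q = 0.0032). Per2 was not shown to be unlike between tissues, at -0.55 against lung (q = 0.218) and -0.40 against kidney (q = 0.644), nor was Dbp, at -0.78 (q = 0.222) and -0.73 (q = 0.416).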

How the data were processed

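The authors aligned 50-base single-end reads of ribosome-depleted libraries to strain-specific pseudo-genomes based on mm9 with STAR 2.5.3a, quantified uniquely aligned reads with RSEM, and deposited, for each library, expected counts and TPM for 24423 genes. Expected counts were rounded, Rn45s and Arntl were dropped, and genes above 1 CPM in at least 30% of the libraries compared were kept. Deposited TPM served only as an alternative Arntl score. limma 3.58.1 (voom, with TMM factors from edgeR 4.0.16 in R 4.3.3) was fitted within each tissue to 16 against 16 libraries. Differences between tissues came from 1 fit over 96 libraries with strain as a replicate block, since libraries of 1 strain come from 1 mouse. Levels were scaled over all 47 libraries of a tissue. Two-sided permutation tests used 100000 resamples. DESeq2 1.42.0 and edgeR's quasi-likelihood test were alternatives.

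The members and gene lists were chosen with earlier results of these data known. A few results are not reported here. Named were all reported genes of the core clock, activating and PAR bZIP lists, up to 4 called genes of each other list by size of fold change, and the 10 smallest q in each direction at 5 CPM or more. None of the genes was called in all 3 tissues. The libraries compared held 1341632 to 17025147 counts, so 3 counts were about 0.474 CPM in liver, 0.465 in lung and 0.488 in kidney. Tested on simulated data of 10087 genes, the liver fit found 85 of 100 genes changed 2-fold and 96 of 100 changed 4-fold, and made 20 false calls in all. The 15 middle livers were left out of the tests. Sequencing batches, which the study fitted as a covariate, are not assigned to libraries in the labels used here and were not fitted.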

Additional observations from a re-analysis of the deposited data

Results flagged for a closer look

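The genes below had a difference between high and low mice in liver that was unlike the one in lung or in kidney, by a direct test in the fit with each mouse's tissues paired (edgeR-scaled counts in limma, q at most 0.1). Values are the liver log2 fold change minus that of the other tissue. Because liver libraries set the groups and liver values picked these genes, the values lean towards larger differences in liver.

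Among the genes lower in high-Arntl livers, Wee1 differed by -1.36 from lung (q = 0.0032) and by -1.29 from kidney (q = 0.0125), and Ciart by -1.71 (q = 0.0255) and -2.07 (q = 0.0135). Coq10b differed by -1.01 (q = 0.0255) and -0.91 (q = 0.075), Nrg4 by -0.91 (q = 0.0952) and -1.0 (q = 0.0433), and Fnip2 by -0.70 (q = 0.0146) and -0.66 (q = 0.0277). Kitl differed by -0.65 from lung (q = 0.0849; kidney q = 0.349), and Rnf145 by -0.62 from kidney (q = 0.0477; lung q = 0.25). Whether these genes differ between lung and kidney was not tested.

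Among the genes higher in high-Arntl livers, Lrfn3 differed by 1.25 from lung (q = 0.0922) and by 1.98 from kidney (q = 0.00383), where its own difference was -0.45 (q = 0.587). Cldn1 differed by 1.17 (q = 0.0101) and 0.87 (q = 0.0505), Ypel2 by 0.69 (q = 0.0622) and 0.92 (q = 0.0125), Mcm7 by 0.49 (q = 0.0101) and 0.50 (q = 0.0135), and Blcap by 0.44 (q = 0.0163) and 0.49 (q = 0.0125). In lung the levels of Mcm7 were 24.2 to 38.4 CPM in the high mice and 24.4 to 36.1 CPM in the low mice.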

How the results depend on the processing

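In liver the 159 calls became 27 at q of at most 0.01 and 27 at 2-fold or more, 94 without the expression filter, 305 with DESeq2, 299 with 12 against 12 livers, 99 with Arntl scored on TMM-scaled CPM, whose groups shared 15 high and 14 low livers with the main ones, and 241 with Rn45s kept, which also changed the groups (14 of 16 livers shared on each side) and the genes tested (9426). Without the 3 shallow livers, an alternative chosen after seeing the data, there were 104, and without CC015, chosen likewise, 223. Scaled by total counts, 137 were called, 130 higher and 7 lower (94.9% higher), against 85 and 74 with TMM, as the median of all genes moved to 0.18 (0.11 in lung, 0.14 in kidney). Grouping the livers by Arntl of the same mouse's lung gave 1 call, and by that of its kidney 0. The lung groups shared 10 high and 8 low livers with the main groups, with 1 of each in the opposite group, and the kidney groups shared 9 and 8, with 3 and 4 in the opposite group. Of 612 values of named genes under alternatives, 507 kept direction and side of the limit and 96 no longer passed. Tef gave all 4 that came to pass. The 5 that reversed were Cry2 0.10 and Fdx1 0.04 with total counts, and Cry2 0.04, Rora 0.09 and Nrg4 0.29 with groups by kidney Arntl. The cause was not tested.

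The 3 lung calls became 0 at q of at most 0.01, at 2-fold or more, with total counts, with 12 against 12 and with Rn45s kept, 15 with DESeq2, 9 with 20 against 20, 49 with all 47 libraries fitted and 7 without CC015. The 0 kidney calls became 43 with DESeq2 and 2 with Rn45s kept. With no replicate block the 87 genes unlike between liver and lung became 45, and the 36 unlike between liver and kidney became 20. At q of at most 0.01 there were 4 and 1, with total counts 11 and 2, and with 12 against 12 livers 70 and 86. Arntl counts of at most 3 in 14 of 16 low livers limit how finely the livers can be ordered, and genes under about 0.474 CPM are not resolved at the median liver depth.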

Other observations

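Further genes called in liver, named after their values were seen, fell outside the lists. Their values under the alternatives are not given. Camk4, a calcium/calmodulin-dependent kinase, had a mean of 10.6 CPM in the high-Arntl livers and 22.6 CPM in the low (log2 fold change -1.27, SE 0.32, q = 0.0432). Rapgef4, a cAMP-activated exchange factor, had means of 5.65 and 16 CPM (-1.57, SE 0.40, q = 0.0524). Clpx, the unfoldase of a mitochondrial protease, had means of 10.5 and 5.01 CPM (1.17, SE 0.23, q = 0.00577). Aacs, which activates acetoacetate for lipid synthesis, had means of 89.7 and 148 CPM (-0.85, SE 0.20, q = 0.0307), and Stard4, a sterol carrier, 104 and 140 CPM (-0.45, SE 0.13, q = 0.0955).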
